A study of Homo sapiens with 16 samples.

Results

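The chaperone genes named as targets of the heat shock factors were followed through a time course of HCF-2 synthesis in human cells. There were 10 of them, HSPA1A, HSPA1B, HSPA8, HSPH1, DNAJB1, DNAJA1, HSP90AA1, HSPD1, HSPE1 and BAG3, out of the 57820 genes in the deposited table. They were chosen by gene name, with earlier results of the same libraries known. Which of those results led to the choice is not recorded, and no threshold on a measured value entered the rule. The tests below come from fits over all genes, and counts over the 10 genes describe the choice rather than stand as independent evidence. Each symbol had 1 Ensembl identifier in the table and all 10 passed the filter on low values (FPKM, the level per length of transcript and per library size, above 1 in at least 1 library). That filter kept 18925 genes.

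Poly(A) RNA was sequenced from Flp-In T-REx-HEK-293 cells, a human embryonic kidney line with a single site for insertion of a transgene. The inserted transgene encoded Flag- and Cherry-tagged HCF-2, either wild type (the HCF-2 WT line) or the mutant HCF-2 Fn3nc*, which carries a point mutation in each of the Fn3n and Fn3c elements. Both lines received doxycycline at 1 μg/ml and were harvested after 1, 2, 4 or 6 days, with 2 libraries per line and day, 8 groups and 16 libraries in all. All groups share the host line, the tags and the doxycycline. Each transgene was studied in 1 selected line, so that line and transgene cannot be told apart, and no uninduced or transgene-free library was analysed here. The sources call the libraries of a group duplicates of the induction without saying whether the cultures were separate. The p-values therefore reflect only the spread between such libraries, which may be technical. In bulk RNA, fewer cells that express a gene and less RNA per cell cannot be told apart.

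Library totals were 20270033 to 31006448 expected counts. HCFC2, the gene of the transgene, was at 893 to 1479 CPM (counts scaled to a common library size, TMM-normalised) in all libraries. Its level differed by line and day. Group ranges in HCF-2 WT, in order of day, were 917 to 963, 946.5 to 980.3, 1065 to 1150 and 1306 to 1362 CPM. HCF-2 Fn3nc* had, in the same order, 893 to 908.5, 1297 to 1348, 1403 to 1479 and 1384 to 1396 CPM. The lines thus differed most at days 2 and 4, and both were higher at day 6 than at day 1. Whether these HCFC2 levels bear on the chaperone genes was not tested. Among 9 markers of HEK-293 cells, 6 exceeded 1 FPKM in all libraries, while PAX2, LHX1 and NEFM, markers of the embryonic kidney and neurofilament character of the line, were low (NEFM at most 0.56 FPKM). Of 10 markers of 5 other cell types, COL1A1 alone exceeded 1 FPKM (1.09 to 2.92), and their summed level was 2.07 to 4.53 FPKM. Replicate 2 of HCF-2 WT day 4 stood apart in the number of genes with a count, 36469 against 26411 to 31713 in the other libraries.

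Heat shock factors are transcription factors that bind heat shock elements, inverted repeats of the unit nGAAn, and drive chaperone genes when unfolded protein accumulates. HSP70 proteins bind exposed stretches of client proteins in an ATP-driven cycle, which J-proteins start and nucleotide exchange factors (HSP110 and BAG proteins) reset. HSP90 acts later, on near-native clients such as kinases and receptors, and the HSP60 and HSP10 pair folds proteins inside mitochondria. Free HSP70 and HSP90 are known to hold heat shock factor 1 inactive, which closes a feedback loop.

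The sequence before the start site was read for the letters of the heat shock element, since this element is what joins the genes into one group. RefSeq promoter windows (GRCh38.p14, 250 bases before the start and 50 from the start on, the start counted as 0) were found for all 10 genes, 14 windows in all. The paired unit GAANNTTC or TTCNNGAA, each of which reads the same on both strands, stood in 8 of the 14 windows and in 13.5% of all 35116 windows. The triple unit GAANNTTCNNGAA or TTCNNGAANNTTC, which contains overlapping pairs and is the reverse complement of the other form, stood in 4 of the 14 windows and in 0.49% of all windows. The stretches below show the matches upstream of the start in capitals, 5′ to 3′ on the strand of the gene, with flanks in lower case.
HSPA1A, chr6:31815417-31815464 (+): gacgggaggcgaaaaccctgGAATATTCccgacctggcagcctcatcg
HSPA1B, chr6:31827613-31827660 (+): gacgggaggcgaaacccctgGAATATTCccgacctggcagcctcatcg
HSPA8, chr11:123062159-123062211 (-): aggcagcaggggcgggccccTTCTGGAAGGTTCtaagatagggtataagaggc
HSPA8, chr11:123062334-123062386 (-): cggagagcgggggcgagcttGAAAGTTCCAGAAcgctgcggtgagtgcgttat
DNAJB1, chr19:14518417-14518464 (-): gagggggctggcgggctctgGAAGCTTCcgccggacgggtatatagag
DNAJB1, chr19:14518447-14518494 (-): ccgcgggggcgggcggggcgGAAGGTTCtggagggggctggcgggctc
DNAJA1, chr9:33025055-33025102 (+): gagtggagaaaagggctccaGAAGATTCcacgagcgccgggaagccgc
HSP90AA1, chr14:102087085-102087152 (-): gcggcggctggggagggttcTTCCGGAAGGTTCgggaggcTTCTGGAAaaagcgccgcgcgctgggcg
HSPD1, chr2:197500062-197500090 (-): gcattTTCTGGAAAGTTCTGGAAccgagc

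The first match base lay at −106 in HSPA1A and −105 in HSPA1B, and the 250 bases upstream of these 2 genes were 93.6% identical. HSPA8 had a triple unit at −55 and another at −230. DNAJB1 had pairs at −77 and −47 in 1 of its 3 windows and a pair just after the start, at 1, in another, and HSP90AA1 had a triple unit at −88 followed by a pair. In HSPD1 the capitals held 3 overlapping pairs from −245 to −228, which make 2 triple units. The triple unit at −240 lay 299 bases upstream of the start of its neighbour HSPE1, on the other strand, and 194 bases downstream of the start of another HSPD1 transcript. DNAJA1 had a pair at −198 and a triple unit just after its start, at 3. The windows of HSPE1, HSPH1 and BAG3 held neither form, which says only that these letters were not in these windows.

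**Figure D1:**
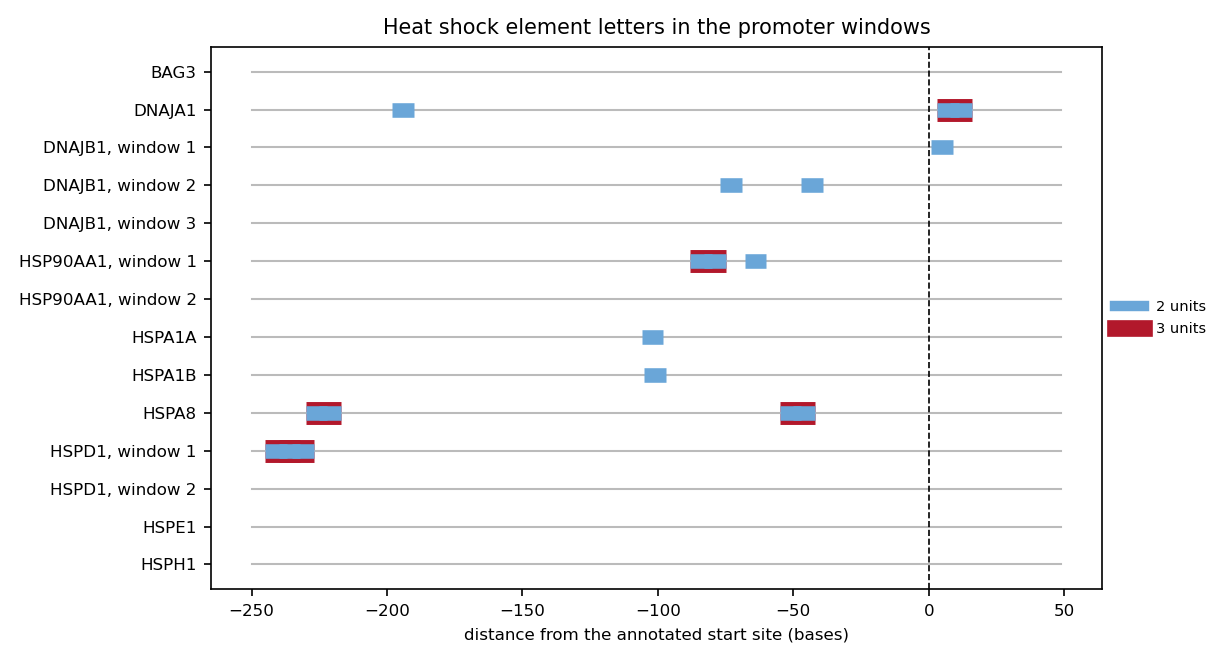
Positions of the paired (2 units, blue) and triple (3 units, red) heat shock element letters in the 14 RefSeq promoter windows of the 10 genes, in bases from the annotated start site (dashed line at 0). The 4 windows with a triple unit belong to DNAJA1, HSP90AA1, HSPA8 and HSPD1, and 6 windows hold no match.

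HSPA1A and HSPA1B encode the stress-inducible HSP70 from adjacent genes (GRCh37 chromosome 6, 31783320 to 31785723 and 31795515 to 31798031). Their reads could not be assigned with certainty. Of the 125-base windows of the HSPA1A transcripts, the length of a read, 67.4% occurred unchanged in HSPA1B, and for HSPA1B 67.5% occurred in HSPA1A. Both genes had fractional expected counts in 16 of 16 libraries, yet their sum was whole (within 0.01 counts) in 16 of 16. HSPA1A took only 0.859% to 1.768% of that sum. The sum is therefore given first, and nothing is read from HSPA1A alone. For the other genes, windows shared with relatives made up at most 3.75% (HSPE1, mostly with the readthrough gene HSPE1-MOB4, whose counts were 1.718% of those of HSPE1). Counts of processed pseudogenes named after a member were 0.618% of the counts of HSPD1 (15 genes), 0.122% for HSPA8 (17 genes), 0.112% for DNAJA1 (6 genes) and 0.01% for DNAJB1 (1 gene). HSPA1L and HSPA6, the nearest relatives of the HSPA1 genes, had only 79 and 210.49 counts in all 16 libraries together.

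The FPKM level, which is per length, put HSPA8 first (mean 963, range 584 to 1226 over the 16 libraries) and HSP90AA1 next (755, range 437 to 1102). The summed HSPA1 genes ranged from 322 to 967 FPKM and HSPD1 from 456 to 661. Below a gap came HSPE1 (mean 180 FPKM) and DNAJA1 (131 FPKM). HSPH1 followed at a mean of 62.3 FPKM, DNAJB1 at 38.3 FPKM and BAG3 at 12.8 FPKM. The ranges of neighbours in this order overlapped, except between HSPD1 and HSPE1 and between DNAJB1 and BAG3. Together the 10 genes took 0.838% to 0.842% of the normalised counts in the HCF-2 WT day 1 libraries. The share was 0.749% to 0.776% in the day 2 pair, 0.555% to 0.613% in the day 4 pair and 0.476% to 0.487% in the last. In HCF-2 Fn3nc* it was 0.684% to 0.701% at first, 0.661% to 0.753% in the day 2 pair, highest at 0.79% to 0.882% in the day 4 pair, and 0.676% to 0.7% in the last. The normalised levels below are CPM, which allow comparison of 1 gene between libraries but not between genes.

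The summed HSPA1 genes were at 2293 and 2347 CPM in the 2 libraries of HCF-2 WT day 1, 1374 and 1368 on day 2, 1096 and 1308 on day 4, and 837 and 811 on day 6. In HCF-2 Fn3nc* they were at 1277 and 1398 CPM on day 1, 987 and 975 on day 2, 1766 and 1819 on day 4, and 1148 and 1017 on day 6. The wild-type libraries thus stepped down from day to day with no overlap between days, whereas the mutant libraries were lowest on day 2 and highest on day 4, again without overlap between neighbouring days. HSPA1B alone, which holds almost all of the sum, was at 2269 and 2318 CPM in the HCF-2 WT day 1 libraries and 824 and 803 on day 6. HSPA1A was at 23.6 and 29.4 CPM on WT day 1 and 13 and 8.15 on day 6.

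HSPA8 encodes the constitutive HSP70 of the cytosol (GRCh37 chromosome 11, 122928197 to 122933938). It was at 2349 and 2120 CPM on HCF-2 WT day 1, 2018 and 2169 on day 2, 1451 and 1237 on day 4, and 1213 and 1133 on day 6. The mutant line had 1440 and 1413 CPM of HSPA8 on day 1, 1974 and 1692 on day 2, 1948 and 2180 on day 4, and 1817 and 1981 on day 6. The day 1 libraries were the highest group of the wild-type line together with day 2, and the lowest group of the mutant line.

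HSPH1 encodes an HSP110, the nucleotide exchange factor that HSP70 uses in dissolving aggregates (GRCh37 chromosome 13, 31709110 to 31736525). Its level was 212 and 190 CPM on HCF-2 WT day 1, 179 and 175 on day 2, 138 and 115 on day 4, and 89.5 and 84.3 on day 6. HSPH1 in HCF-2 Fn3nc* was at 238 and 228 CPM on day 1, 218 and 201 on day 2, 209 and 235 on day 4, and 190 and 191 on day 6. Every later wild-type group lay below the one before it, while the mutant libraries stayed within 190 to 238 CPM.

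DNAJB1 encodes a J-protein that is itself induced by heat and passes clients to HSP70 (GRCh37 chromosome 19, 14625581 to 14671203). It was at 96.5 and 98.2 CPM on HCF-2 WT day 1, 89.2 and 90.7 on day 2, 73.4 and 66.7 on day 4, and 62.3 and 62.8 on day 6. In HCF-2 Fn3nc* it was at 72.7 and 72.2 CPM on day 1, 86.4 and 83 on day 2, 81.5 and 94.8 on day 4, and 75.2 and 76.3 on day 6. The wild-type groups descended without overlap and the mutant day 1 libraries were the lowest of their line.

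DNAJA1 encodes a farnesylated J-protein of the cytosol (GRCh37 chromosome 9, 33025271 to 33039905). It was at 295 and 271 CPM on HCF-2 WT day 1, 266 and 275 on day 2, 193 and 164 on day 4, and 146 and 142 on day 6. The HCF-2 Fn3nc* libraries had 273 and 275 CPM on day 1, 301 and 260 on day 2, 263 and 293 on day 4, and 263 and 290 on day 6. All mutant groups overlapped with their day 1. The wild-type libraries of days 1 and 2 overlapped, those of day 4 lay below them and those of day 6 lower again.

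HSP90AA1 encodes the inducible HSP90 of the cytosol (GRCh37 chromosome 14, 102547079 to 102606036). It was at 1761 and 2042 CPM on HCF-2 WT day 1, 2459 and 1988 on day 2, 1753 and 1418 on day 4, and 1385 and 1390 on day 6. HSP90AA1 in HCF-2 Fn3nc* was at 2621 and 2718 CPM on day 1, 2800 and 2425 on day 2, 2658 and 3107 on day 4, and 2285 and 2423 on day 6. The mutant libraries were above the wild-type libraries of the same day except on day 2, where they overlapped.

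HSPD1 and HSPE1 encode the mitochondrial HSP60 and its co-chaperonin HSP10. They lie on opposite strands of GRCh37 chromosome 2 (198351308 to 198381461 and 198364864 to 198368173), and the annotated span of HSPD1 contains that of HSPE1. HSPD1 was at 1245 and 1150 CPM on HCF-2 WT day 1 and 1010 and 1005 on day 6, with days 2 and 4 between 1104 and 1260. In HCF-2 Fn3nc* it was at 810 and 795 CPM on day 1 and 861 and 894 on day 6, with days 2 and 4 between 842 and 1015. HSPE1 was at 143 and 129 CPM on HCF-2 WT day 1, 142 and 140 on day 2, 135 and 109 on day 4, and 96.1 and 99.5 on day 6. In the mutant line HSPE1 was at 71 and 68.9 CPM on day 1, 117 and 87.9 on day 2, 97.9 and 106 on day 4, and 95.9 and 100 on day 6. For both genes the mutant day 1 libraries were the lowest of all 16.

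BAG3 encodes a co-chaperone that couples HSP70 to small heat shock proteins and to selective autophagy (GRCh37 chromosome 10, 121410892 to 121437331). It was at 26.4 and 30.8 CPM on HCF-2 WT day 1, 33.1 and 26.2 on day 2, 25 and 26.7 on day 4, and 29.3 and 31.6 on day 6. BAG3 in HCF-2 Fn3nc* was at 41 and 39.2 CPM on day 1, 27.3 and 30.6 on day 2, 32.5 and 29.9 on day 4, and 28.5 and 25 on day 6. The 2 mutant day 1 libraries were the highest of all 16, and the wild-type days showed no order.

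**Figure D2:**
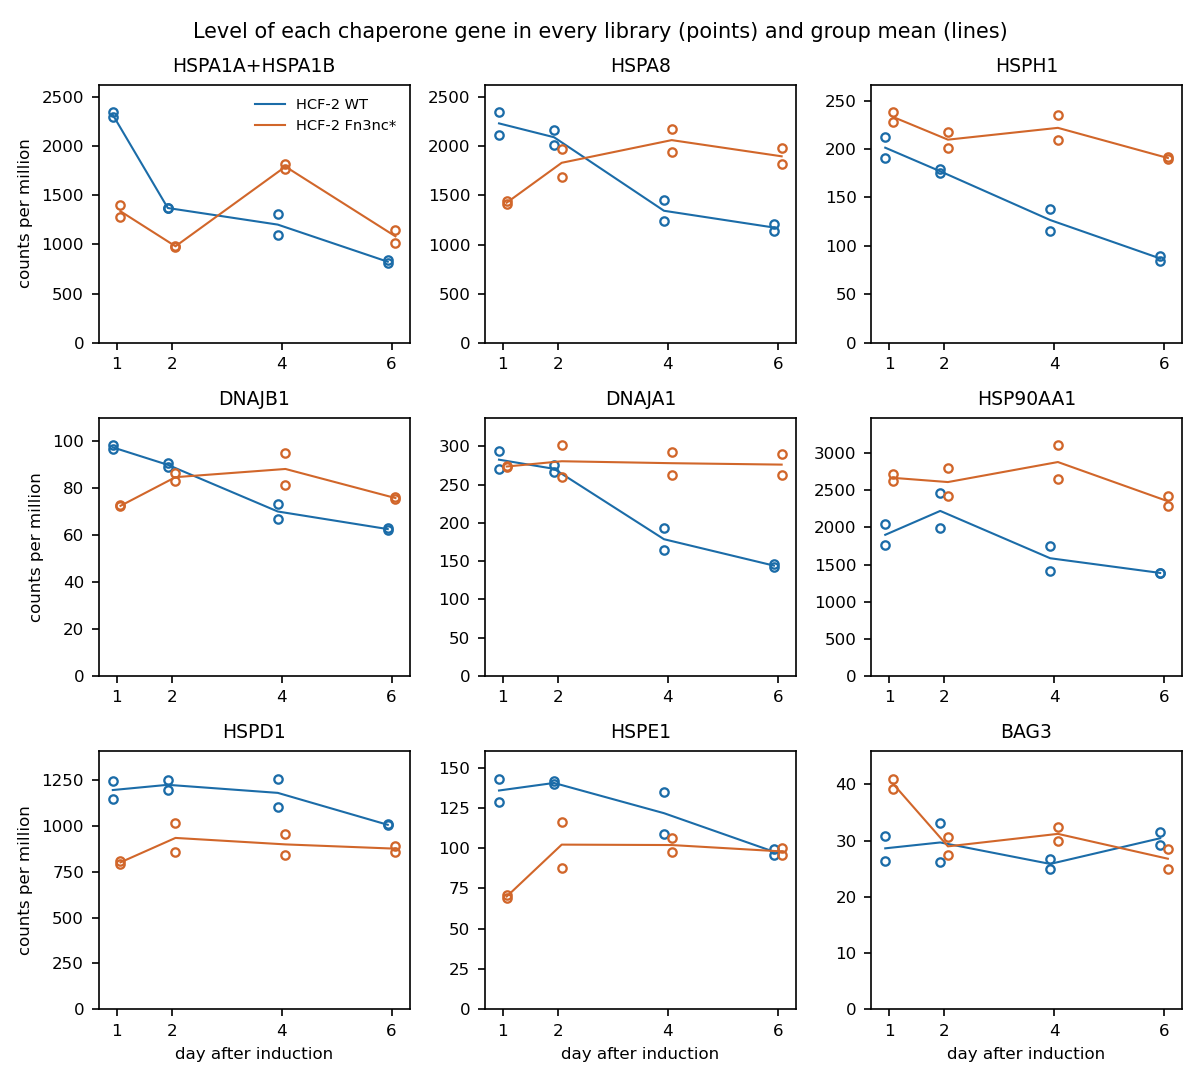
Normalised level (CPM, axis from 0) of the 9 separable features in each of the 16 libraries (open points) against day, with lines through the means of the 2 libraries of each group, HCF-2 WT in blue and HCF-2 Fn3nc* in orange. The summed HSPA1 genes go from 2293 and 2347 to 837 and 811 CPM in the wild-type line, and from 1277 and 1398 through 1766 and 1819 to 1148 and 1017 CPM in the mutant line.

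The first comparison asks how the chaperone genes changed after day 1 of wild-type HCF-2 synthesis. A call of change needed a log2 fold change of more than 0.5 in either direction and an adjusted p below 0.05 (edgeR quasi-likelihood test, Benjamini-Hochberg adjustment over all 18925 genes). By day 6, 6 of the 10 genes had fallen and none had risen: HSPA1B, HSPA1A, HSPH1, DNAJA1, HSPA8 and DNAJB1. Over all genes tested, 8.04% were called lower and 13.2% higher. The median log2 fold change was −0.81 over the 10 genes and −0.01 over all genes. With the HSPA1 genes counted once, 5 of 9 features had fallen. Every comparison within a line uses the same 2 day 1 libraries, so the values for days 2, 4 and 6 are not independent of each other.

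The summed HSPA1 genes fell by 1.52 on the log2 scale (SE 0.09, edgeR adjusted p = 2.54e-06), to 2.86-fold below day 1. HSPA1B had the seventh smallest p of all genes tested. HSPH1 fell by 1.23 (SE 0.10, edgeR adjusted p = 1.13e-05), a 2.35-fold drop, and its partner in the HSP70 cycle HSPA8 fell by 0.95 (SE 0.10, edgeR adjusted p = 3.39e-05). Of the J-proteins, DNAJA1 fell by 0.99 (SE 0.10) and DNAJB1 by 0.66 (SE 0.08). HSPE1 (log2 −0.50, SE 0.11) and HSP90AA1 (log2 −0.48, SE 0.12) passed the adjusted p (0.00361 and 0.00906 by edgeR) but stopped just short of the fold threshold. HSPD1 passed the adjusted p (0.0277 by edgeR) at a smaller change of −0.27. Leaving out replicate 1 of day 1 moved HSP90AA1 to −0.58 and past the threshold. Leaving out replicate 2 of day 1 or of day 6 moved HSPE1 to −0.56 and −0.52. Over the 8 left-out libraries HSP90AA1 ranged from −0.58 to −0.35, HSPE1 from −0.56 to −0.41 and HSPD1 from −0.31 to −0.21. HSP90AA1 and HSPD1 did not pass the adjusted p in all 8. BAG3 had a log2 fold change of 0.07 with a 95% interval of −0.20 to 0.33.

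On day 2 the HSPA1 sum was called at −0.75 (SE 0.08, edgeR adjusted p = 0.00554). Of the 10 genes 1 was called, HSPA1B, against 0.275% of all genes called lower. HSPH1 (−0.18, SE 0.10) and DNAJB1 (−0.11, SE 0.08) also lay below day 1 without overlap and were not called, and no test compared the timing of the genes. That call rested on all 4 libraries of the comparison, since leaving out any 1 of them kept the size (−0.77 to −0.74) but took the adjusted p above 0.05 (0.0577 and 0.0587 without replicate 1 or 2 of day 1, 0.115 and 0.0864 without replicate 1 or 2 of day 2). On day 4, 5 of the 10 genes were called lower against 1.87% of all genes. These were both HSPA1 genes (sum −0.95), HSPA8 (−0.73), HSPH1 (−0.67) and DNAJA1 (−0.66), while DNAJB1 stood at −0.47. Without replicate 2 of day 4, the library with more detected genes, the 4 features stayed called at −1.08, −0.62, −0.54 and −0.55. DNAJB1 was called at −0.55 without replicate 1 of day 4, and HSPH1 lost its call with limma on log2 FPKM (−0.62, adjusted p = 0.0612). HSPA1A, counted among the 5, lost its call (−0.92, edgeR adjusted p = 0.0365) without either library of day 1 or of day 2 or replicate 1 of day 4 (adjusted p 0.054 to 0.19), and with DESeq2 (0.105).

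Measured from day 2 instead of day 1, 8 of the 10 genes were lower on day 6 against 7.65% of all genes. HSP90AA1 (−0.71, SE 0.12) and HSPE1 (−0.55, SE 0.11) were then called too, and HSPD1 and BAG3 were not. Comparisons of consecutive days were added after the levels by day were seen. From day 2 to day 4 HSPA8 (−0.64) and DNAJA1 (−0.60) fell, 2 of 10 genes against 2.25% of all genes, and DNAJA1 lost the call at −0.49 without replicate 2 of day 4. From day 4 to day 6 HSPA1B (sum −0.57, SE 0.08) and HSPH1 (−0.57, SE 0.10) fell, 2 of 10 genes against 1.13%. Both of these lost the call without either day 6 library. HSPH1 also lost it without replicate 1 of day 4 (−0.43), and the HSPA1 sum without replicate 2 of day 4 (−0.42). From day 2 to day 4, HSPH1 (−0.48) was called at −0.62 without replicate 1 of day 4. HSP90AA1 (−0.49) was called at −0.63 without replicate 2 of day 2 and at −0.66 without replicate 1 of day 4. Over the 8 left-out libraries HSPH1 ranged from −0.62 to −0.36 and HSP90AA1 from −0.66 to −0.34. Neither passed the adjusted p in all 8.

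The same comparison was made in the HCF-2 Fn3nc* line. On day 6, 2 of the 10 genes were called lower against 15.4% of all genes, and none higher against 8.89%. One was BAG3, which fell by 0.62 (SE 0.09, edgeR adjusted p = 0.000298), and the other was HSPA1A, whose reads are uncertain. Measured from day 2, BAG3 stood at −0.13 on day 6 and was not called. HSPA1A lost its call without either day 1 library or replicate 2 of day 6 (−0.64, −0.58 and −0.26). The summed HSPA1 genes were at −0.34 (SE 0.07), HSPH1 at −0.33 (SE 0.07) and HSP90AA1 at −0.22 (SE 0.09). HSPA8 at 0.38 and HSPE1 at 0.45 lay on the other side of 0, and HSPE1 was called at 0.51 without replicate 1 of day 6. DNAJA1 was at −0.02 with a 95% interval of −0.21 to 0.16, DNAJB1 at 0.03 (−0.13 to 0.19) and HSPD1 at 0.09 (−0.10 to 0.29).

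In the main fit, HSPE1 was the member that was called higher than on day 1 in the mutant line. It rose by 0.53 on day 2 (SE 0.11, edgeR adjusted p = 0.00388) and by 0.51 on day 4 (SE 0.11), 1 of 10 genes each time against 4.18% and 8.04% of all genes called higher. Both values lay close to the fold threshold. The day 2 value was 0.31 without replicate 1 of day 2, and the day 4 value was 0.49 without replicate 2 of day 1 and 0.48 without replicate 2 of day 4. With limma on log2 FPKM the 2 values were 0.47 and 0.49, not called, and HSPA8 was called higher on day 4 instead (0.55, limma adjusted p = 0.00291). On day 2, 1 of 10 genes was called lower against 10.7%, and that was HSPA1A. HSPA8 reached 0.4988 on day 4, under the threshold by a margin smaller than its SE of 0.09, and passed it at 0.51 with DESeq2's size factors and at 0.51 to 0.60 without any 1 of 4 libraries (replicate 1 of days 1, 4 and 6 and replicate 2 of day 2). BAG3 was already at −0.49 on day 2 (SE 0.09) and at −0.40 on day 4. The day 2 value was called at −0.53 without replicate 2 of day 1 and at −0.55 without replicate 2 of day 2.

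The HSPA1 genes of the mutant line went down, up and down again relative to day 1, at −0.47, 0.39 and −0.34 on days 2, 4 and 6 (SE 0.07 to 0.08), none of them beyond the fold threshold. The day 2 value was called at −0.53 without replicate 1 of day 1. Between consecutive days, compared after these levels were seen, the changes were larger. The sum rose by 0.86 from day 2 to day 4 (SE 0.08, edgeR adjusted p = 0.000259) and fell by 0.73 from day 4 to day 6 (SE 0.08, edgeR adjusted p = 0.0118). Among the 10 genes, 2 were called higher on day 4 than on day 2, against 0.116% of all genes. These were HSPA1A and HSPA1B, which make up 1 separable feature. HSPA1A lost that call without replicate 1 or 2 of day 2 (1.29 and 0.99) or replicate 1 of day 4 (0.96). On day 6, 1 gene was called lower than on day 4 (HSPA1B) against 0.0211%. The fall of the HSPA1 sum from day 4 to day 6 lost significance without replicate 2 of day 4 (−0.715) and without replicate 1 or 2 of day 6 (−0.82 and −0.64). From day 2 to day 6, edgeR called 0 of the 10 genes, with 2 at an unadjusted p under 0.05 (HSPA1A and DNAJB1), against 0.645% of all genes called higher and 2.22% lower.

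**Figure D3:**
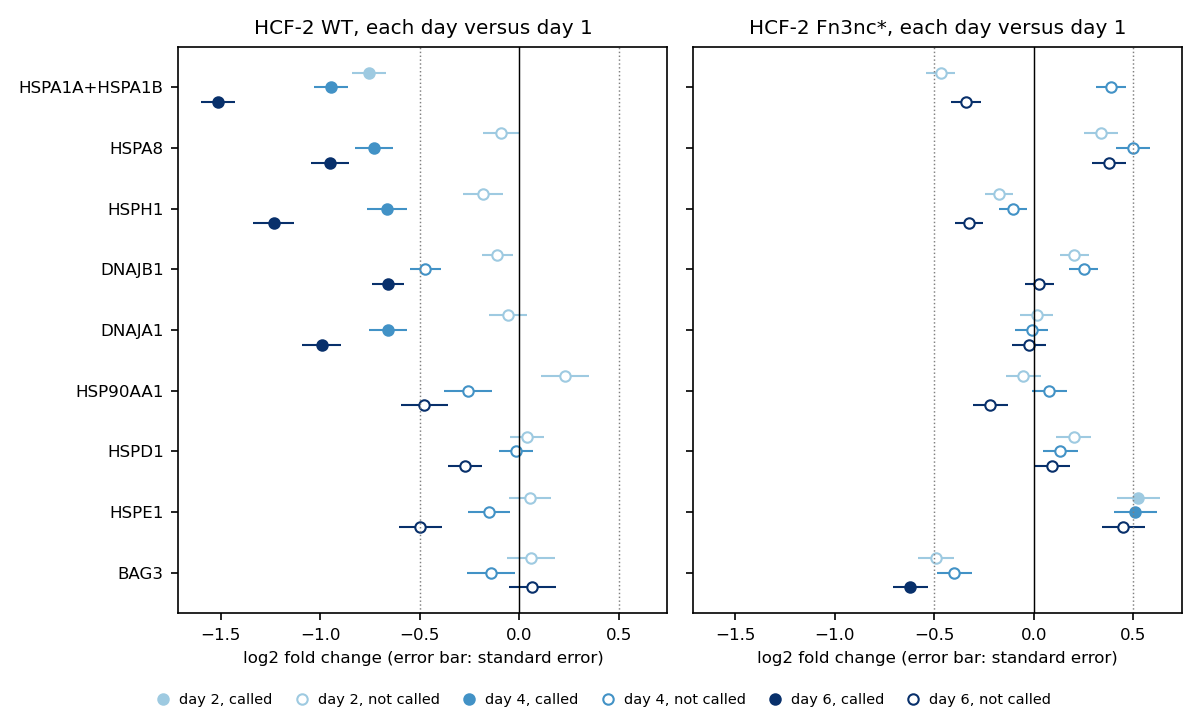
Log2 fold change of each day against day 1 (x axis, points with standard error) for the 9 features in HCF-2 WT (left) and HCF-2 Fn3nc* (right), with filled points for called changes and dotted lines at the fold threshold of 0.5. On day 6 the HSPA1 sum, HSPA8, HSPH1, DNAJB1 and DNAJA1 are filled on the left between −1.52 and −0.66, and on the right BAG3 alone is filled for that day, at −0.62.

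The second comparison set the 2 lines side by side on the same day. On day 1 the HCF-2 Fn3nc* line was lower in 4 of the 10 genes, against 15.5% of all genes called lower. HSPE1 differed by −0.96 (SE 0.12, edgeR adjusted p = 5.05e-06), the HSPA1 sum by −0.79 (SE 0.08), HSPA8 by −0.65 (SE 0.09) and HSPD1 by −0.58 (SE 0.09). HSP90AA1 and BAG3 pointed the other way just under the threshold, at 0.49 (SE 0.12) and 0.49 (SE 0.11). Each passed it without replicate 2 of HCF-2 WT day 1 (0.57 and 0.58). HSP90AA1 also passed it without replicate 1 and BAG3 without replicate 2 of HCF-2 Fn3nc* day 1 (both 0.52). Over the 16 left-out libraries HSP90AA1 ranged from 0.35 to 0.57 and BAG3 from 0.35 to 0.58. HSP90AA1 did not pass the adjusted p in all 16. Both genes were called at 0.52 when FPKM above 1 was asked of every library. With limma on log2 FPKM, HSPD1 was at −0.46 and lost its call, while HSP90AA1 (0.56) and BAG3 (0.55) were called higher. That fit thus called 2 of the 10 genes higher and 3 lower, beside 3857 and 2178 of all genes. HSPH1 was at 0.21, DNAJA1 at −0.05 (95% interval −0.24 to 0.15) and DNAJB1 at −0.43.

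On day 2 the call was limited to HSPA1A, 1 of 10 genes against 7.57% of all genes, and no separable feature was called. The HSPA1 sum was at −0.48 (SE 0.08) and HSPE1 at −0.46 (SE 0.11). Without replicate 1 of HCF-2 Fn3nc* day 2, HSPE1 (−0.68) and HSPD1 (−0.52) were called. Over the 16 left-out libraries HSPE1 ranged from −0.68 to −0.27 and HSPD1 from −0.52 to −0.27. Neither passed the adjusted p in all 16. For the HSPA1 sum, HSPA8 and DNAJB1 the sign was turned on days 4 and 6, with DNAJB1 at −0.09 on day 2 and then 0.33 and 0.28, not called. The mutant line was higher in 5 of the 10 genes on day 4 (against 10.1% of all genes) and in 4 on day 6 (against 13.2%), and lower in none. HSPH1 was higher by 0.81 and 1.13 on the 2 days (SE 0.09 each), which made it 2.19-fold higher on day 6. DNAJA1 was higher by 0.64 and 0.94, HSP90AA1 by 0.86 and 0.76, and HSPA8 by 0.62 and 0.69. The HSPA1 sum was higher by 0.58 on day 4 and stood at 0.39 on day 6, under the threshold. Without replicate 1 of HCF-2 WT day 4 the HSPA1 sum was at 0.45, and without replicate 2 HSPA8 was at 0.49, neither then called, and HSPD1 was called at −0.51 in the latter case. HSPE1 was at 0.00 on day 6 (95% interval −0.24 to 0.25) and HSPD1 at −0.20.

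**Figure D4:**
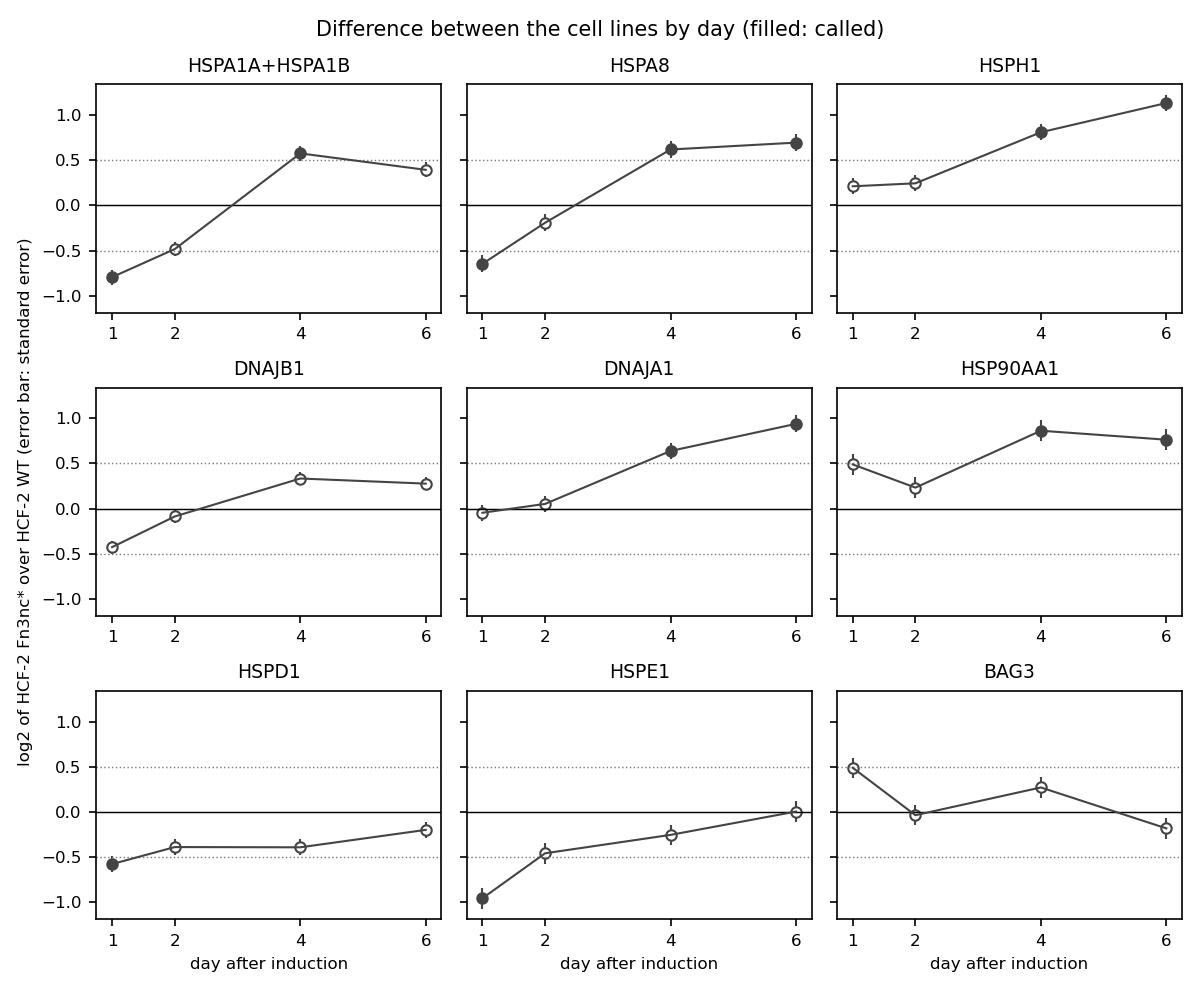
Log2 ratio of HCF-2 Fn3nc* over HCF-2 WT on each day (y axis, points with standard error, filled where called) for the 9 features, with dotted lines at 0.5 and −0.5. The HSPA1 sum, HSPA8 and DNAJB1 cross 0 between days 2 and 4 (from −0.48, −0.19 and −0.09 to 0.58, 0.62 and 0.33). HSPD1 and HSPE1 begin below −0.5 and end at −0.20 and 0.00.

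Whether the day 6 change itself differed between the lines was tested as an interaction, called at an adjusted p under 0.05 without a fold threshold. Of the 10 genes, 7 were higher (less decrease or more increase in the mutant line), against 16.1% of all genes, and 1 was lower, against 20%. The differences were largest for HSPA8 (1.34, SE 0.13) and the HSPA1 sum (1.19, SE 0.12), followed by DNAJA1 (0.98, SE 0.13), HSPE1 (0.96, SE 0.16), HSPH1 (0.92, SE 0.13), DNAJB1 (0.70, SE 0.10) and HSPD1 (0.38, SE 0.13). BAG3 was the 1 lower gene (−0.67, SE 0.16), with an adjusted p of 0.0507 in limma on log2 FPKM. For HSP90AA1 the difference was 0.27 (SE 0.17, edgeR adjusted p = 0.224), beside line differences of 0.49 on day 1 and 0.76 on day 6. For HSPD1 the call was lost without any 1 of 6 of the 16 libraries (adjusted p 0.0623 to 0.0957): replicate 1 of HCF-2 WT day 1, either library of HCF-2 WT day 6, either library of HCF-2 Fn3nc* day 1, or replicate 2 of HCF-2 Fn3nc* day 6.

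Since both lines' day 1 libraries enter that test, it was repeated from day 2. Then 7 of the 10 genes were higher against 10.3% of all genes. The HSPA1 sum (0.88), HSPH1 (0.89), DNAJA1 (0.89), HSPA8 (0.89) and DNAJB1 (0.36) were called again. HSP90AA1 gained a call (0.53, SE 0.17, edgeR adjusted p = 0.0306). So did HSPA1A, counted among the 7 though its reads are uncertain (1.48, edgeR adjusted p = 0.0173). HSPA1A lost that call without replicate 2 of HCF-2 WT day 6 (1.16). It also lost it without replicate 2 of day 2 or replicate 1 of day 6 of HCF-2 Fn3nc* (1.33 and 1.01). HSPE1 (0.46, edgeR adjusted p = 0.0506, called at 0.68 without replicate 1 of HCF-2 Fn3nc* day 2), HSPD1 (0.19) and BAG3 (−0.15) were not called from day 2. The calls of DNAJB1 and HSP90AA1 from day 2 were each lost without any 1 of 6 libraries, with adjusted p values up to 0.0791 and 0.176. For DNAJB1 these were both libraries of HCF-2 WT days 2 and 6 and replicate 2 of HCF-2 Fn3nc* days 2 and 6. For HSP90AA1 they were replicate 1 of HCF-2 WT day 2, replicate 2 of HCF-2 Fn3nc* day 2 and both day 6 libraries of each line.

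Over the 16 libraries, Pearson's r of log2 CPM was positive in 27 of the 36 pairs of members (HSPA1A left out). These points share their groups of line and day, so r is a description. The highest values were between HSPH1 and DNAJA1 (0.96), DNAJB1 and HSPA8 (0.94) and HSPE1 and HSPD1 (0.92). HSPE1 and BAG3 had the lowest (−0.68). Within HCF-2 WT (8 libraries) all 28 pairs without BAG3 were positive (0.56 to 0.99), and 1 of the 8 pairs with BAG3 was. Within HCF-2 Fn3nc* (8 libraries) 22 of the 28 pairs without BAG3 and 3 of the 8 with it were positive. HSPE1 and HSPD1 gave 0.96 in HCF-2 WT and 0.89 in HCF-2 Fn3nc*, whereas HSPH1 and DNAJA1 gave 0.98 and 0.31.

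Other genes were searched for a like pattern, 12224 of them after a limit of 100 on the mean count. Those whose pattern over the 16 libraries was most like each member were named. For HSPH1 they were PDE12 (r = 0.98), H2AFY and CHORDC1, the last a co-chaperone of HSP90. For DNAJA1 they were MFSD1, ADI1 and H2AFY (0.97 to 0.98). For HSPD1 they were TMEM14B, FAR2 and HSPA9 (all 0.98), the last being the mitochondrial HSP70. For HSPE1 they were CHCHD1, HIST1H1D and TOMM5, the last a subunit of the mitochondrial import pore (0.97 to 0.98). For HSPA8 they were RER1, ORMDL2 and DYNLL1 (0.95 to 0.96), for DNAJB1 MARCKSL1, RBMXL1 and ABCF2 (0.94 to 0.95), and for HSP90AA1 the proteasome subunit gene PSMD11, FAM206A and NCSTN (0.94 to 0.95). BAG3 was nearest to STX16, SAP130 and SCAF4 (0.92), and HSPA1B had its nearest neighbour, N6AMT1, at 0.88 (then ZNF215 and ATG7). HSPA1A, uncertain as above, was nearest to HIST1H2AD (0.82), NDOR1 and CTDP1.

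Lists of other chaperone and heat shock genes, 6 lists with 90 genes of which 81 were tested, were described in the same way. In HCF-2 WT on day 6, 5 were called higher and 13 lower, with a median log2 fold change of −0.19, against 13.2% and 8.04% of all genes. Of 25 genes for HSP90 and its co-chaperones, 7 fell and none rose (median −0.33). They were BAG1, a nucleotide exchange factor of HSP70 (−0.84, SE 0.09), CHORDC1 (−0.78), PPID (−0.54), TTC4 (−0.54), BAG5 (−0.52), BAG2 (−0.52) and the kinase co-chaperone CDC37 (−0.50). HSP90AB1, the constitutive HSP90, stood at −0.33 and was not called. Of 18 other J-proteins, 3 fell and none rose: DNAJB11 of the endoplasmic reticulum (−0.80, SE 0.08), the ribosome-bound DNAJC2 (−0.77) and DNAJB4 (−0.66). Of 9 other HSP70 and HSP110 genes tested, 2 fell and 2 rose. HSPA5, the HSP70 of the endoplasmic reticulum, fell by 0.63 and HSPA14, the ribosome-associated HSP70, by 0.51, whereas HSPA2 rose by 1.13 (from 2.08 to 4.61 CPM) and HSPA12A by 0.59. Of 4 small heat shock protein genes tested, 2 rose, HSPB8 by 1.43 (from 0.649 ± 0.172 to 1.79 ± 0.0568 CPM, SD, n = 2, edgeR adjusted p = 0.00618) and HSPB1 by 0.92.

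In the HCF-2 Fn3nc* line on day 6, 3 of the 81 genes were called higher and 21 lower (median −0.09), against 8.89% and 15.4% of all genes. From day 2 to day 6, 1 was called higher and 3 lower, against 0.645% and 2.22% of all genes. HSPB8, the small heat shock protein that works with BAG3, fell by 3.49 (SE 0.11), from 39.7 ± 0.749 to 3.61 ± 0.254 CPM (SD, n = 2). On day 1 it was 5.93 higher on the log2 scale (SE 0.17) in the mutant line than in HCF-2 WT. BAG3 and HSPB8 were thus both highest in the mutant line on day 1. Of the HSP90 list, 2 genes fell, BAG1 by 0.62 and FKBP5 by 0.61, and the ubiquitin ligase gene STUB1 rose by 0.75 after a day 1 level 1.28 below HCF-2 WT on the log2 scale. TRAP1, the mitochondrial HSP90, was 0.85 below HCF-2 WT on day 1 and 1.05 below on day 6. Of the J-proteins, 4 fell: DNAJB5 by 1.48 (mean count 96.9), DNAJB2 by 0.65, DNAJC2 by 0.64 and DNAJB4 by 0.62, while DNAJB11 was at −0.01. HSPA14 fell by 0.79 and HSPA2 rose by 1.17. HSPB11, a gene with a small heat shock protein name, was 0.58 lower than in HCF-2 WT on day 1.

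The list of the factors themselves and their regulators held 10 tested genes. In HCF-2 WT on day 6, edgeR called 0 of them, as did DESeq2 and limma, with 3 at an unadjusted p under 0.05 by edgeR. Over all 18925 genes tested, edgeR called 13.2% higher and 8.04% lower, and 8461 had an unadjusted p under 0.05. The log2 fold change was 0.20 for HSF1 and 0.40 for HSF2. DAXX, a co-activator of HSF1, was at −0.12 and the deacetylase SIRT1 at −0.45. In HCF-2 Fn3nc*, 7 of the 10 fell from day 1 to day 6, against 15.4% of all genes: DAXX (−1.32, SE 0.06), HSF2BP (−0.91), SIRT1 (−0.88), CREBBP (−0.78), HSF2 (−0.65), FBXW7 (−0.63) and EP300 (−0.62). HSF1 was at −0.09. From day 2 to day 6 edgeR called 0 of the 10 (median −0.11), with 4 at an unadjusted p under 0.05. Over all 18925 genes tested, 0.645% were called higher and 2.22% lower, and 4279 had an unadjusted p under 0.05. Between the lines on day 1, 7 of the 10 were higher in HCF-2 Fn3nc*, against 18.7% of all genes. That comparison uses the mutant day 1 libraries that also enter the fall to day 6. DAXX was higher by 1.06 (184 ± 3.17 against 88.2 ± 5.03 CPM, SD, n = 2) and HSF2 by 0.71, while HSF1 was at 0.03. On day 6 DAXX was at −0.12 between the lines.

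Of 15 other genes linked to HSF1, 1 rose and 1 fell in HCF-2 WT by day 6, and in HCF-2 Fn3nc* 1 rose and 6 fell, against 13.2% and 8.04% of all genes in HCF-2 WT and 8.89% and 15.4% in HCF-2 Fn3nc*. From day 2 to day 6, 2 of the 15 were called lower in the mutant line and none higher, against 2.22% and 0.645% of all genes. ZFAND2A, an arsenite-inducible proteasome adaptor, fell by 1.38 in the mutant line (14.1 to 5.56 CPM) and stood at 0.02 in HCF-2 WT. HMOX1, haem oxygenase 1, fell by 1.05 in HCF-2 WT and rose by 0.64 in HCF-2 Fn3nc*, and the difference of the 2 changes was 1.70 (SE 0.16, edgeR adjusted p = 1.2e-06). No called gene of the 6 lists changed sign by day 6 in either line, or between the lines on day 1, with DESeq2's size factors, DESeq2 or limma on log2 FPKM. Of those named here, CDC37 lost its HCF-2 WT call with both DESeq2 settings. Limma lost HSPA2, HSPA5, HSPA12A, PPID, BAG5 and TTC4 in HCF-2 WT, DNAJB2 and FBXW7 in HCF-2 Fn3nc* and HSPB11 between the lines.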

How the data were processed

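Poly(A) RNA libraries (NEXTflex qRNA-seq kit, 125-nucleotide single-end HiSeq 2500 reads) were mapped by the authors with STAR to GRCh37 with the GENCODE annotation of Ensembl 74. Whether the molecular labels of the kit were used is not stated there. The deposited values are RSEM 1.3.0 expected counts per gene, which need not be whole, and FPKM made by the authors. The FPKM sums of the lines differ (883713 to 948950 in HCF-2 Fn3nc*, 1027278 to 1119960 in HCF-2 WT), so levels between lines are given from counts.

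Expected counts were rounded. A gene entered the test if any library had it above 1 FPKM. Tests used edgeR 4.0.16 (R 4.3.3, TMM, quasi-likelihood F test, Benjamini-Hochberg), within each line on its 8 libraries and between lines on all 16. The script was tested on simulated data. Standard errors are the log2 fold change divided by the square root of F, and 95% intervals use the t distribution on the degrees of freedom of that test. DESeq2 1.42.0, limma 3.58.1 on log2(FPKM + 0.1), other filters and left-out libraries served as alternatives. All members were named. From the 6 lists, up to 3 genes each were named by the largest fold change among those called by day 6 in either line or between the lines on day 1 (mean count at least 100), and the 3 nearest patterns of each member. Other list genes in the text (CHORDC1, PPID, TTC4, BAG5, BAG2, CDC37, HSP90AB1, HSPA5, FKBP5, DNAJB2, DNAJB5, HSF1, HSF2, CREBBP, FBXW7 and EP300) were chosen after their values were seen. Members and lists were chosen with earlier results of these data known. A listed gene that this rule names is not reported here.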

Additional observations from a re-analysis of the deposited data

Results flagged for a closer look

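Several of these genes had a day 6 versus day 1 change that differed between HCF-2 Fn3nc* and HCF-2 WT by a direct test of the difference (edgeR contrast of 4 groups, 2 libraries each). On the log2 scale the difference was 1.34 for HSPA8, 1.19 for the HSPA1A and HSPA1B sum, 1.19 for HSPA1B alone, 0.98 for DNAJA1, 0.96 for HSPE1, 0.92 for HSPH1, 0.70 for DNAJB1 and 0.38 for HSPD1, all less negative or more positive in the mutant line. For BAG3 it was −0.67. Over all genes tested, 16.1% were called higher and 20% lower in the same test, and the part of the day 1 difference between the lines in these values was not tested beyond the repeat from day 2.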

How the results depend on the processing

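Counts below are of the 10 genes, then of all genes, that were called. For HCF-2 WT on day 2, 1 gene was called, 2 with no FPKM filter and 0 with limma on log2 FPKM (0 to 1 leaving out a library), and of all genes 57, or 227 with no filter (94 higher, 133 lower, against 5 and 52), 8 with limma, 102 with all 16 libraries in 1 fit and 33 with the replicate block (1 to 99 leaving out a library). For HCF-2 WT on day 4, limma called 3 in place of 5, and 396 of all genes in place of 1325 (632 to 1667 leaving out a library). For HCF-2 Fn3nc* on day 2, limma and the HSPA1 sum each gave 1 in place of 2 (1 to 3 leaving out a library). For HCF-2 Fn3nc* on day 4, DESeq2's size factors, DESeq2, no filter, the filter on every library and the 16-library fit each gave 2 in place of 1 (0 to 2 leaving out a library), the added gene being HSPA8. For HCF-2 Fn3nc* on day 6, no filter, limma, the 16-library fit and the HSPA1 sum each gave 1 in place of 2 (1 to 3 leaving out a library). With day 2 as the reference 0 were called and 542 of all genes in place of 4603 (122 higher, 420 lower, against 1683 and 2920), and HSPA1A turned to 0.69 (adjusted p 0.109). Between the lines on day 2, no filter gave 2, limma 0 and the HSPA1 sum 0 in place of 1 (0 to 3 leaving out a library), and the filter on every library called 2088 of all genes in place of 3151. With limma the split between the lines was 2033 higher and 788 lower on day 2 (against 1719 and 1432), 2309 and 1492 on day 4 (against 1902 and 2291), and 3459 and 2159 on day 6 (against 2501 and 3183).

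Deviations of same-numbered libraries from their group means correlated at −0.60 to 0.52 within a line (3 of 12 above 0.1) and at −0.58 to 0.58 between lines. With 2 libraries per group the sign of such a value depends on the numbering. Large values of both signs mean that duplicates of different groups differed in related ways. The replicate block takes out only a difference that follows the numbers, and another shared factor was not tested. The replicate block took HSPA1A on HCF-2 WT day 4 above the threshold (adjusted p 0.0531) and changed no other call of the 10 genes. No filter shifted the median of all genes by 0.16 on HCF-2 WT day 4, and limma on FPKM shifted it by 0.09 to 0.13 between the lines. Among values not called with or without the library left out, 53 changed sign. With 2 libraries per group, changes near a log2 of 0.5 could not be placed firmly on either side of the threshold.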
